A study of Mus musculus with 20 samples.

Results

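The response of the liver to 24 h without food was described in 10 RNA-seq libraries with intact Plin2, which are 10 of the 20 libraries of the series. They were taken by their labels: 5 libraries are labelled Plin2+/+ Fed and 5 are labelled Plin2+/+ Fasted. All 10 came from liver tissue of female C57BL/6N mice at 15 weeks of age that carry both Plin2 alleles, so the groups differ in feeding alone as far as the labels tell. The fed mice had chow and the fasted mice had no food for 24 h. The other 10 libraries carry a Plin2-null genotype and entered the same fit, where they also bore on which genes were tested, the scaling and the estimate of spread. The sources give no hour of collection, cage or batch, so time of day was not tested. The liver was sampled whole and at 1 fasting time, and in such bulk tissue fewer cells of a type and less RNA per cell cannot be told apart.

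During a fast the liver shifts from storing carbohydrate and making lipid to oxidising fatty acids, making glucose and ketone bodies, and sparing protein. Falling insulin and rising glucagon and glucocorticoid reach hepatocytes through transcription factors such as FOXO1, CREB, the glucocorticoid receptor and PPARα, while the insulin-driven factor SREBP-1c is withdrawn. The liver also makes most plasma proteins and releases hormones, called hepatokines, and its membrane transporters set which amino acids, organic ions and bile components cross the hepatocyte.

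Of 16312 genes with enough counts to test, 42.6% passed an adjusted p of 0.05 (edgeR quasi-likelihood test, Benjamini-Hochberg adjustment), 20.9% of all tested genes being higher and 21.7% lower in fasted liver. These shares are the background for every count below unless another scaling or setting is named. A call without any overlap between the 5 fasted and the 5 fed libraries was made for 26.2% of tested genes. Levels are CPM, counts scaled to a common library total, on TMM-scaled library sizes, a scaling that takes most genes as stable, and each fold change is a fitted log2 ratio of fasted to fed with its standard error (SE). A log2 value of 1 is a doubling and -1 a halving. The libraries held 25506471 to 65579038 counts. The median log2 fold change of all tested genes was -0.01, and it was -0.16 when libraries were scaled by their totals alone, which moved the higher share of all calls from 49.1% to 30.8%. With library totals alone 1854 of the 16312 genes were higher and 4173 lower, which is the background for counts under that scaling. Replicates correlated at 0.979 or more within a group on log2 CPM. Fed replicate 4 stood farthest from its group, with 320 genes more than 1 log2 unit from the group median against 50 to 144 in the other fed libraries. Of 14 tested hepatocyte markers, 4 were higher and 4 lower in fasted liver (median log2 fold change -0.05). With library totals alone 2 were higher and 6 lower. Alb, 1 of the 14, had 91121 ± 19053 CPM in fed and 99505 ± 20175 CPM in fasted libraries (mean ± SD, n = 5 each, adjusted p = 0.55). Of the 5 adipocyte markers Lep, Retn and Cfd had no count in any of the 10 libraries, while Adipoq had at most 4 and Plin1 at most 3 counts in a library. Nothing in the labels tells how the mice were housed or handled. The p-values reflect only how the libraries vary, and those of edgeR take the estimate of spread from the Plin2-null libraries as well.

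Transcription factors changed about as often as other genes, but not evenly by family. Of 1062 transcription factor genes taken by symbol, 792 could be tested, 161 were higher and 144 lower in fasted liver, and their median log2 fold change was 0.03. Under scaling by library totals alone the split became 69 higher and 169 lower, so the lean of the whole class depended on the scaling. The lipogenic and sterol regulators were among those that fell. Srebf1, the gene of the lipogenic factor SREBP-1, had 153, 165, 134, 78.0 and 133 CPM in fed replicates 1 to 5 and 3.62, 3.02, 5.16, 5.44 and 8.37 CPM in fasted replicates 1 to 5 (log2 fold change -4.70 ± 0.29 SE, adjusted p = 4.2e-10). Srebf1 was among the genes chosen for absence of overlap between the groups. Mlxipl, which encodes the carbohydrate sensor ChREBP, went from 313 ± 14.0 to 109.6 ± 35.0 CPM (log2 fold change -1.51 ± 0.17 SE, adjusted p = 3.6e-07). Srebf2, the sterol regulator, went from 55.1 to 23.3 CPM (log2 fold change -1.24 ± 0.15 SE, adjusted p = 1.0e-06).

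Among factors at 1 CPM or more with no overlap between the groups, Mycl, a MYC-family gene, rose most. Mycl had 1.13, 2.29, 3.91, 4.04 and 4.34 CPM in the fed and 21.1, 26.7, 31.1, 28.0 and 24.8 CPM in the fasted libraries (log2 fold change 3.07 ± 0.33 SE, adjusted p = 4.3e-07). Its relative Myc, a driver of growth and ribosome production, also rose, from 1.14, 1.79, 1.85, 2.36 and 1.49 CPM in fed to 4.48, 5.92, 9.59, 5.44 and 8.13 CPM in fasted libraries (log2 fold change 1.97 ± 0.40 SE, adjusted p = 6.1e-04). Absence of overlap between the groups is how both genes were chosen. Mycn, the third member of the family, moved the other way at a low level, from 0.573 to 0.195 CPM (log2 fold change -1.58 ± 0.39 SE, adjusted p = 0.0025), so the MYC paralogs differed in direction.

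Small bZIP and Krüppel-like factors leaned upward. Of 17 tested AP-1, EGR, MAF and NRF genes, 7 rose and 1 fell, the median being 0.39 on the log2 scale (0.24 with library totals alone, under which 4 rose and 1 fell). Maff, a small MAF protein that pairs with NRF factors, went from 1.31 ± 0.549 to 8.66 ± 4.77 CPM (log2 fold change 2.73 ± 0.36 SE, adjusted p = 5.1e-06). Fosl2 and Bach1 rose by 1.14 and 1.08 on the log2 scale. The calls of Fos and Jun, which rose by 1.11 and 1.28, were lost in 8 and 7 of the 10 fits with 1 library left out (adjusted p up to 0.0985 and 0.078). Of 19 tested KLF and SP genes, 5 rose and 1 fell (median 0.15, but -0.01 with library totals alone). Klf10 had 16.2, 13.6, 8.74, 7.82 and 17.5 CPM in fed and 44.3, 32.6, 59.3, 42.4 and 38.8 CPM in fasted libraries (log2 fold change 1.76 ± 0.33 SE, adjusted p = 2.9e-04). Klf11 and Klf9 rose by 1.51 and 1.31 on the log2 scale, Klf9 being a known glucocorticoid-responsive gene. Zbtb16, which encodes the zinc finger factor PLZF, had 10.6, 12.5, 24.0, 35.8 and 18.1 CPM in fed and 91.4, 82.9, 97.6, 58.9 and 90.0 CPM in fasted libraries (log2 fold change 2.06 ± 0.36 SE, adjusted p = 1.6e-04). The 10 libraries did not overlap for Klf10, Klf11, Klf9 or Zbtb16, a condition by which Klf10, Klf11 and Zbtb16 were chosen.

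Interferon and growth-hormone signalling factors leaned downward. Of 23 tested STAT, IRF and NF-κB genes, 10 fell and 1 rose, their median being -0.30 on the log2 scale, and 11 fell and none rose with library totals alone (edgeR). Irf5, an interferon regulatory factor of myeloid cells, had 10.2, 15.2, 12.6, 10.7 and 17.0 CPM in fed and 1.99, 2.54, 2.06, 2.74 and 3.69 CPM in fasted libraries (log2 fold change -2.34 ± 0.18 SE, adjusted p = 1.9e-09). Irf7 went from 32.3 to 10.0 CPM, Stat2 from 88.3 to 40.8 CPM and Irf1 from 30.5 to 14.1 CPM. Stat5a and Stat5b, which carry the growth hormone signal in hepatocytes, fell by 1.02 and 0.57 on the log2 scale. Irf2 alone rose, by 0.33. The Kupffer cell and macrophage markers also fell in 9 of 13 genes, with a summed level of 504 to 679 CPM in fed and 314 to 539 CPM in fasted libraries, none of the 13 being absent, and their part in the fall of these factors was not tested.

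Nuclear receptors fell more often than they rose, with 11 of 39 tested genes lower and 5 higher (median -0.09), and 11 lower and 1 higher with library totals alone (median -0.24). Ppard, the fatty acid receptor PPARδ, had 22.0, 29.9, 24.7, 25.8 and 9.61 CPM in fed and 3.25, 3.17, 4.42, 4.29 and 6.79 CPM in fasted libraries (log2 fold change -2.35 ± 0.30 SE, adjusted p = 3.3e-06), while Ppara, the receptor that drives fat oxidation during fasting, went from 116 ± 12.3 to 210.0 ± 50.4 CPM (log2 fold change 0.85 ± 0.19 SE, adjusted p = 0.001). Ppard and Ppara thus moved in opposite directions. Esr1, the oestrogen receptor α gene, went from 57.1 to 23.9 CPM (log2 fold change -1.25 ± 0.14 SE, adjusted p = 2.8e-07) in these female livers, and Nr0b2, the repressor SHP, from 8.30 to 2.75 CPM (log2 fold change -1.60 ± 0.25 SE, adjusted p = 2.8e-05). Nr3c1, the glucocorticoid receptor gene itself, was lower by -0.41 on the log2 scale (adjusted p = 0.0013), and Hnf4a, the hepatocyte master regulator, was higher by 0.49 (adjusted p = 0.0031).

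Developmental liver factors also separated. Onecut1, which encodes HNF6, had 16.3, 24.8, 14.1, 8.10 and 6.92 CPM in fed and 4.97, 2.80, 1.12, 2.06 and 3.10 CPM in fasted libraries (log2 fold change -2.30 ± 0.45 SE, adjusted p = 5.3e-04), and its paralog Onecut2 was lower by -0.61 on the log2 scale. Hes6 and Heyl, genes of the Notch-linked Hairy family, went from 17.8 ± 5.47 to 2.82 ± 1.22 CPM and from 3.91 ± 1.01 to 0.975 ± 0.321 CPM. Of the SOX, GATA, ETS and RUNX genes, 14 of 40 fell and 5 rose (median -0.33), and 16 fell and 3 rose with library totals alone. The C/EBP genes split: Cebpb rose (log2 fold change 1.63 ± 0.33 SE, adjusted p = 4.8e-04) and Cebpd rose by 2.79 from a fed mean of 0.195 CPM, whereas Cebpe fell by 2.17. The cell cycle factors E2f1 and E2f2 fell by 1.82 and 3.97. The large zinc finger group, 434 tested genes with mostly unknown roles, had 93 higher and 60 lower members (median 0.09), a lean that reversed to 34 higher and 75 lower with library totals alone (median -0.06). Zfp612 rose (log2 fold change 1.74 ± 0.19 SE, adjusted p = 2.6e-07). Zfp36l2, which the symbol pattern took in, encodes an mRNA-decay protein and not a transcription factor, and it rose from 20.7 to 57.8 CPM.

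**Figure D1:**
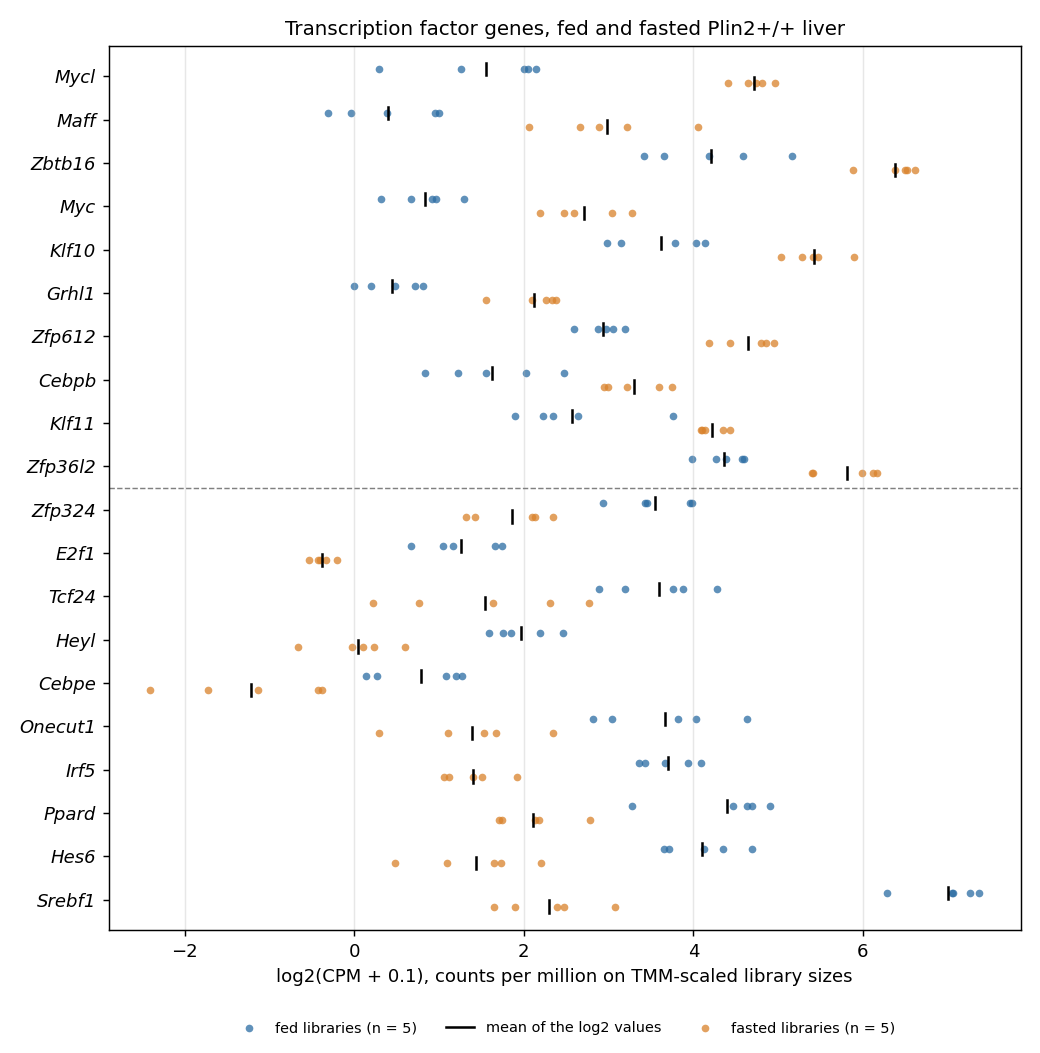
Transcription factor genes with the 10 largest rises (above the dashed line) and 10 largest falls among those at a mean of 1 CPM or more with no overlap of the groups, shown per library as log2(CPM + 0.1) on the horizontal axis, with blue points for the 5 fed and orange points for the 5 fasted libraries and black ticks for the mean of each group. Absence of overlap is how the 20 genes were chosen, and Srebf1 has the largest shift of those shown.

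The promoters of the changed genes were read for the letters of known binding sites, because several regulators above are themselves activated after translation and their own mRNA need not move. The 250 bases before the annotated start were searched on both strands in RefSeq promoters of build GRCm38.p6, for the 8866 tested genes with 1 listed start. The motifs were chosen with their shares known, and a match is a description of letters. The glucocorticoid receptor palindrome (an inverted repeat, the capitals in the sequences below) was held by 23 of these promoters, or 0.259%. It was held by 9 of the 475 genes that were called and at least 1 log2 unit higher in fasted liver (1.89%), and by 3 of the 878 called and at least 1 log2 unit lower (0.342%). Of the 9 risers, 5 with well known products are shown to let the shared letters be compared; they were picked by the match after their values were seen, and capitals mark the palindrome. Mt1 encodes the metal-binding metallothionein 1, Txnip a brake on glucose uptake, Map3k6 a stress kinase, Serpina3n an acute phase serpin and Slc10a6 a steroid sulfate carrier.
Mt1 (chr8:94178981-94179021, plus strand): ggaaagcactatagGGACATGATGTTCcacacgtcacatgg
Txnip (chr3:96557771-96557811, plus strand): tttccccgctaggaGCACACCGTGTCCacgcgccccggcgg
Map3k6 (chr4:133240623-133240663, plus strand): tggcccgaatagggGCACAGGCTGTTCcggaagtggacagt
Serpina3n (chr12:104406616-104406656, plus strand): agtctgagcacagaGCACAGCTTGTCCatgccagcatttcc
Slc10a6 (chr5:103629540-103629580, minus strand): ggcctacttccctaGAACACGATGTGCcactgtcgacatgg
Slc10a6 stood at 0.0880, 0.0402, 0.0670, 0.351 and 0.0885 CPM in fed and 1.13, 1.60, 2.27, 0.900 and 0.800 CPM in fasted libraries (log2 fold change 3.45 ± 0.49 SE, adjusted p = 8.1e-06; 4.17 without fed replicate 4). Serpina3n went from 329 ± 43.1 to 677 ± 277 CPM (log2 fold change 1.04 ± 0.20 SE, adjusted p = 3.1e-04), the only riser among 27 tested serpins. Mt1 went from 13.1 to 66.1 CPM, Txnip from 83.3 to 455 CPM and Map3k6 from 0.738 to 5.44 CPM. The other 4 risers with the palindrome were Fyb2 and the genes Gm30173, Gm16573 and A230028O05Rik, and the 3 fallers were Car14, Clic3 and Cpxm1.

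The other motifs spread differently. The interferon-stimulated response element was in 2.85% of all promoters, 2.74% of the risers and 6.83% of the fallers. The cyclic AMP response element TGACGTCA was in 2.68% of all, 3.16% of the risers and 1.14% of the fallers. The amino acid response element TGATGNAA was in 2.03% of all, 3.79% of the risers and 2.96% of the fallers. The forkhead letters TGTTTAC were in 2.30% of all, 1.26% of the risers and 3.30% of the fallers. The STAT palindrome TTCNNNGAA was in 6.27%, 5.26% and 7.52%. The E-box CACGTG was in 8.26% of all, 8.21% of the risers and 6.61% of the fallers, and CCAAT in 36.8%, 39.6% and 42.0%. The promoters of 2 genes are shown for the arrangement of their matches: that of the interferon-stimulated ubiquitin-like gene Isg15 (chr4:156200861-156200910, minus strand), a faller with 3 overlapping matches of the interferon-stimulated response element, and the 250 bases before the start of the fasting hormone gene Fgf21 (chr7:45615491-45615740, minus strand), with TGATGNAA, read on the opposite strand, and CACGTG in capitals.
Isg15: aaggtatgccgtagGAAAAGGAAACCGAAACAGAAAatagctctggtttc
Fgf21: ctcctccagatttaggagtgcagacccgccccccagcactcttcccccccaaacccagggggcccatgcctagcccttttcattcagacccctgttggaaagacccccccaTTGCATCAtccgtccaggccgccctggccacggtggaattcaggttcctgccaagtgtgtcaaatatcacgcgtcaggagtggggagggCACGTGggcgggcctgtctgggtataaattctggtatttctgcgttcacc
Isg15 went from 13.3 ± 6.92 to 1.91 ± 0.731 CPM (log2 fold change -2.82 ± 0.48 SE, adjusted p = 1.2e-04), and it was named after its values were seen.

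Transporter and channel genes changed more often than the background, in both directions. Of 737 taken by symbol, 457 could be tested, 110 were higher (24.1%) and 147 lower (32.2%) in fasted liver, with a median log2 fold change of -0.19, and 74 were higher and 165 lower with library totals alone. Carriers that supply fatty acid oxidation were among the rises. Slc22a5, which encodes the plasma membrane carnitine carrier OCTN2 and so supplies the shuttle for fatty acids, had 21.5, 16.5, 13.9, 11.2 and 16.1 CPM in fed and 173, 140.1, 142, 135 and 120.5 CPM in fasted libraries (log2 fold change 3.17 ± 0.16 SE, adjusted p = 8.8e-12). Slc27a1, a fatty acid transport protein better known from muscle and fat, went from 4.47 ± 0.877 to 36.8 ± 9.28 CPM (log2 fold change 3.04 ± 0.23 SE, adjusted p = 2.2e-09). Its liver paralog Slc27a2 went from 761 to 2718 CPM (log2 fold change 1.84 ± 0.16 SE, adjusted p = 1.3e-08). Mfsd2a, the lysophosphatidylcholine carrier, had 33.0, 32.6, 48.9, 84.6 and 7.36 CPM in fed and 222, 191, 209.6, 169.8 and 162 CPM in fasted libraries (log2 fold change 2.21 ± 0.55 SE, adjusted p = 0.004). The fed range was wide for Mfsd2a, and absence of overlap is how the gene was chosen.

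Mitochondrial carriers rose in 22 and fell in 12 of 50 tested genes (median 0.26, 0.09 with library totals alone). Among the rises were those of the orphan carriers Slc25a34 (log2 fold change 2.31 ± 0.21 SE, adjusted p = 2.8e-08) and Slc25a47 (log2 fold change 2.22 ± 0.32 SE, adjusted p = 1.7e-05). Slc25a22, a glutamate carrier, went from 123 to 532 CPM, Slc25a32, a folate and flavin carrier, from 25.1 to 102 CPM, and Slc25a20, the carnitine-acylcarnitine translocase, from 96.8 to 218 CPM. Slc25a1, the citrate carrier that feeds lipid synthesis, fell by 0.92 on the log2 scale and Slc25a23, a calcium-regulated ATP-magnesium carrier, by 1.69. Urea cycle carriers rose, Slc25a15 (ornithine) by 1.01 and Slc25a13 (aspartate and glutamate) by 0.66.

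Amino acid transporters had 13 higher and 15 lower of 39, and 7 higher and 18 lower with library totals alone. Slc1a4, the neutral amino acid exchanger ASCT1, had 8.68, 17.1, 11.2, 8.80 and 10.5 CPM in fed and 0.701, 0.545, 0.590, 0.900 and 0.930 CPM in fasted libraries (log2 fold change -3.96 ± 0.33 SE, adjusted p = 1.0e-08). Slc7a5, Slc7a8, Slc6a6 and Slc36a1 also fell, by 1.22, 1.62, 1.38 and 1.45 on the log2 scale. In contrast Slc7a2, the cationic amino acid carrier that brings in arginine and ornithine, went from 405 to 1204 CPM (log2 fold change 1.57 ± 0.38 SE, adjusted p = 0.0027). Slc38a4, a system A carrier of alanine and other gluconeogenic amino acids, went from 966 to 1712 CPM (log2 fold change 0.82 ± 0.17 SE, adjusted p = 4.1e-04). Slc38a3, the glutamine carrier SNAT3, fell from 1012 to 594 CPM.

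Water, organic ion and bile components were affected in opposite ways. Aqp8, an aquaporin of hepatocyte canaliculi, had 54.6, 71.7, 111, 95.1 and 106 CPM in fed and 5.15, 4.25, 2.77, 9.56 and 7.18 CPM in fasted libraries (log2 fold change -3.94 ± 0.38 SE, adjusted p = 1.9e-07). Aqp4, a water channel best known from astrocytes, had 1.81, 0.945, 0.313, 1.15 and 0.478 CPM in fed and 9.47, 7.16, 14.7, 6.77 and 10.4 CPM in fasted libraries (log2 fold change 3.35 ± 0.32 SE, adjusted p = 4.5e-08). Of the 5 tested aquaporins Aqp4 alone rose and Aqp1 fell with Aqp8. Abcb4, the canalicular phosphatidylcholine floppase, rose from 226, 195, 168, 134 and 195 CPM in fed to 858, 879.8, 772, 744 and 821 CPM in fasted libraries (log2 fold change 2.15 ± 0.13 SE, adjusted p = 1.0e-10). Abcb11, the bile salt export pump, fell from 860.3 ± 88.4 to 473 ± 101 CPM (log2 fold change -0.86 ± 0.15 SE, adjusted p = 7.7e-05). Abca8a, a cholesterol and organic anion transporter, fell from 180.4, 167, 171, 210.3 and 199 to 19.7, 25.3, 21.2, 24.9 and 18.0 CPM (log2 fold change -3.09 ± 0.15 SE, adjusted p = 3.4e-12), one of the 10 smallest adjusted p-values in the whole comparison.

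Of the 30 tested organic anion, cation and bile acid transporters, 12 fell and 5 rose. Slc22a7, the organic anion transporter OAT2, had 14.2, 19.6, 20.4, 3.54 and 27.2 CPM in fed and 0.927, 0.432, 0.796, 0.600 and 1.73 CPM in fasted libraries (log2 fold change -4.24 ± 0.45 SE, adjusted p = 5.7e-07). Slco1a1 went from 348 ± 106 to 56.0 ± 21.5 CPM (log2 fold change -2.63 ± 0.31 SE, adjusted p = 1.8e-06) while its neighbour in the family Slco1a4 went up from 155 to 317 CPM (log2 fold change 1.03 ± 0.27 SE, adjusted p = 0.004). Slc22a28 and Slc22a30 fell by 5.64 (6.29 without fasted replicate 2) and 2.98 on the log2 scale, but these belong to a cluster of near-identical copies among which the counting could divide reads. Monocarboxylate and dicarboxylate transporters fell in 7 and rose in 4 of 15 tested genes (median -0.60). Dicarboxylate carriers Slc13a2, Slc13a3 and Slc13a5, the last being the citrate carrier, fell by 2.25, 2.19 and 1.56. Of the monocarboxylate carrier family, Slc16a7, Slc16a10 and Slc16a13 rose by 1.67, 1.45 and 1.85, and Slc16a6 and Slc16a12 fell by 1.15 and 0.60. Slc37a4, the glucose-6-phosphate carrier of gluconeogenesis, went from 78.6 to 242 CPM, and Slc2a2, the glucose transporter GLUT2, from 261 to 179 CPM.

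Vitamin, choline and folate carriers fell in 8 and rose in 3 of 13 tested genes (median -0.67), the choline-like transporters Slc44a1, Slc44a2, Slc44a3 and Slc44a4 all being lower, although the call of Slc44a4 was lost in 8 of the 10 fits with 1 library left out (adjusted p up to 0.146). Slc19a1, the reduced folate carrier, and Slc52a2, a riboflavin transporter, rose by 1.4 and 1.08. Ion channels, many at levels near the detection limit, fell in 31 and rose in 14 of 95, and fell in 33 and rose in 8 with library totals alone. Scn4b, a sodium channel β subunit, was counted at 5, 1, 10, 3 and 1 reads in the fed and 158, 142, 181, 30 and 114 reads in the fasted libraries (log2 fold change 5.23 ± 0.51 SE, adjusted p = 6.1e-08; 5.93 without fed replicate 3). Asic5, the bile acid-sensitive ion channel, had 3.08, 1.87, 2.32, 4.26 and 2.44 CPM in fed and 20.5, 20.2, 22.4, 12.9 and 17.2 CPM in fasted libraries (log2 fold change 2.74 ± 0.21 SE, adjusted p = 2.3e-09). Magnesium carriers of the Slc41 family diverged, Slc41a2 going from 24.2 to 3.82 CPM and Slc41a3 from 0.778 to 4.55 CPM. Slc34a2, a phosphate carrier, fell from 14.3 ± 10.1 to 1.5 ± 0.792 CPM, and Kcnt2, a potassium channel, from 2.68 to 0.532 CPM.

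**Figure D2:**
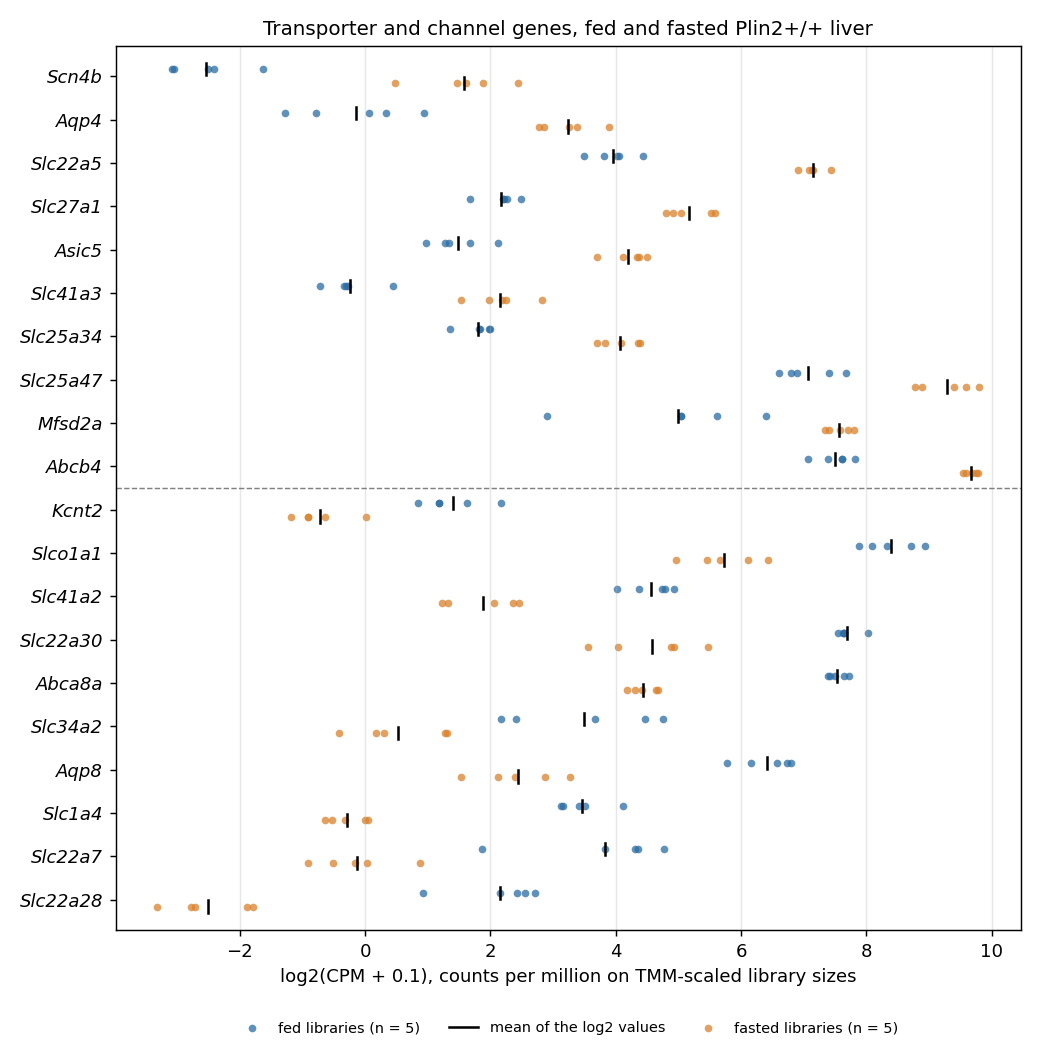
Transporter and channel genes with the 10 largest rises (above the dashed line) and 10 largest falls among those at a mean of 1 CPM or more with no overlap of the groups, per library as log2(CPM + 0.1), with blue points for the 5 fed and orange points for the 5 fasted libraries and black ticks for group means. Scn4b moves from close to no counts in the fed libraries, and the points of Abca8a form a compact group in each state.

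Genes of secreted proteins fell far more often than they rose. Of 779 taken by symbol, 439 could be tested, 55 were higher (12.5%) and 164 lower (37.4%), with a median log2 fold change of -0.34 (-0.50 with library totals alone, 39 higher and 199 lower). The class took 26.7%, 29.1%, 27.0%, 32.6% and 28.1% of all counts in fed replicates 1 to 5 and 24.1%, 25.4%, 26.3%, 23.6% and 26.3% in fasted replicates 1 to 5. No fasted library reached a fed one (exact two-sided permutation test, p = 0.00794, the smallest that 5 against 5 allows, and 0.0265 after adjustment over 10 such shares). These are shares of raw totals. On the TMM scale used for CPM the summed level of the class overlapped, at 244100 to 315000 CPM in fed and 231900 to 312200 CPM in fasted libraries. Albumin alone, the largest member, took 9.43% ± 1.87 of counts in fed and 9.11% ± 0.873 in fasted libraries (SD, n = 5 each, exact permutation p = 0.810).

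Hormone and growth factor genes moved both ways. Of 21 tested hormone and peptide genes 4 rose (19%) and 6 fell (28.6%). Of 39 FGF, TGF-β and activin genes 8 rose (20.5%) and 10 fell (25.6%). These shares were not far from those of all tested genes, 20.9% higher and 21.7% lower. Of 48 EGF, VEGF, angiopoietin and CCN genes 6 rose (12.5%) and 17 fell (35.4%). Fgf21, the hepatokine that acts on fat tissue and brain, had 0.704, 1.17, 0.313, 0.176 and 1.72 CPM in fed and 9.52, 5.28, 10.7, 12.0 and 16.2 CPM in fasted libraries (log2 fold change 3.68 ± 0.60 SE, adjusted p = 8.3e-05). Igfbp1, which binds and restrains insulin-like growth factors, had 5.84, 69.2, 77.8, 124 and 69.1 CPM in fed and 1113, 1275, 2344, 359 and 643 CPM in fasted libraries (log2 fold change 4.05 ± 0.87 SE, adjusted p = 0.0012). The fed libraries of Igfbp1 spread widely, replicate 1 being far below the rest, and absence of overlap is how the gene was chosen. Igf1 fell from 1006 ± 99.9 to 435 ± 73.8 CPM (log2 fold change -1.21 ± 0.16 SE, adjusted p = 3.3e-06) and its carrier subunit Igfals by 1.98 on the log2 scale. Of 10 tested insulin-like growth factor and binding protein genes, 2 rose and 4 fell.

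Angptl4, an inhibitor of lipoprotein lipase, had 15.4, 24.8, 31.6, 29.2 and 33.7 CPM in fed and 176, 207, 269, 193 and 218 CPM in fasted libraries (log2 fold change 2.98 ± 0.42 SE, adjusted p = 1.8e-05). Angptl8, its fed-state relative, fell from 49.6, 25.5, 8.18, 7.85 and 18.8 to 0.294, 0.395, 0.560, 1.97 and 2.81 CPM (log2 fold change -4.25 ± 0.81 SE, adjusted p = 4.6e-04; -4.95 without fasted replicate 5). Nrg4, a ligand of the ERBB4 receptor better known from brown fat, had 2.41, 1.71, 1.83, 4.36 and 1.91 CPM in fed and 17.4, 21.2, 54.6, 7.72 and 24.2 CPM in fasted libraries (log2 fold change 3.37 ± 0.41 SE, adjusted p = 2.9e-06). Activin genes diverged: Inhbb, the βB subunit, had 1.43, 0.884, 1.39, 2.18 and 1.63 CPM in fed and 5.47, 8.28, 14.1, 6.26 and 7.90 CPM in fasted libraries (log2 fold change 2.49 ± 0.26 SE, adjusted p = 1.4e-07). Inhba, the βA subunit, went from 37.3 ± 16.5 to 9.12 ± 2.82 CPM (log2 fold change -2.04 ± 0.33 SE, adjusted p = 6.4e-05). Absence of overlap between the groups is how Inhbb was chosen. Enho, which encodes the peptide adropin, fell from 8.13 to 1.51 CPM (log2 fold change -2.45 ± 0.51 SE, adjusted p = 7.4e-04). Prok1, a prokineticin, was counted at 748, 743, 207, 251 and 813 reads in fed and 2, 1, 2, 1 and 6 reads in fasted libraries (log2 fold change -7.35 ± 0.87 SE, adjusted p = 2.9e-06; -7.996 without fasted replicate 5). Ccn2, a matrix-associated growth factor, rose from 1.87, 1.51, 5.05, 16.8 and 1.26 to 29.8, 22.9, 29.1, 42.9 and 22.7 CPM (log2 fold change 2.49 ± 0.58 SE, adjusted p = 0.0021; 3.61 without fed replicate 4, the highest fed library).

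The plasma carriers of corticosterone and thyroxine fell. Serpina6, the corticosteroid-binding globulin that holds corticosterone in plasma, had 244, 217, 361, 336 and 251 CPM in fed and 28.2, 37.8, 9.94, 37.8 and 8.16 CPM in fasted libraries (log2 fold change -3.53 ± 0.41 SE, adjusted p = 1.8e-06). Serpina7, the thyroxine-binding globulin, had 79.9, 20.5, 35.1, 31.3 and 34.9 CPM in fed and 6.51, 3.61, 3.66, 10.8 and 2.50 CPM in fasted libraries (log2 fold change -2.92 ± 0.45 SE, adjusted p = 4.6e-05). Ttr, the thyroxine and retinol-binding protein carrier, fell from 3321 ± 423 to 1386 ± 219 CPM (log2 fold change -1.26 ± 0.14 SE, adjusted p = 3.4e-07). Rbp4, its retinol-carrying partner, rose from 1655 ± 183 to 3453 ± 406 CPM (log2 fold change 1.06 ± 0.12 SE, adjusted p = 2.8e-07). Of 27 tested serpins, 12 fell and 1 rose. Serpina9 was nearly lost, with 557, 180, 54, 313 and 456 reads in the fed and 1, 2, 0, 2 and 0 reads in the fasted libraries (log2 fold change -7.73 ± 1.09 SE, adjusted p = 1.9e-05). Trf, transferrin, fell from 14522 ± 1153 to 8001 ± 1012 CPM (log2 fold change -0.86 ± 0.11 SE, adjusted p = 3.3e-06). A1bg went from 259 ± 106 to 23.9 ± 13.5 CPM (log2 fold change -3.43 ± 0.63 SE, adjusted p = 3.1e-04).

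No complement gene rose. Of 36 tested complement factors and collectins, 22 fell and none rose (edgeR), against 21.7% lower among all genes. The median was -0.51 on the log2 scale, and 28 fell with library totals alone. C8a, of the terminal pathway, had 410.1, 517, 376, 443 and 444 CPM in fed and 96.0, 159.9, 103, 111 and 149 CPM in fasted libraries (log2 fold change -1.82 ± 0.15 SE, adjusted p = 4.4e-09), and the terminal components C8b and C9 fell by 1.47 and 1.28 on the log2 scale. Mbl2, a mannose-binding lectin that starts the lectin pathway, went from 566 ± 83.2 to 212 ± 35.5 CPM (log2 fold change -1.42 ± 0.13 SE, adjusted p = 2.5e-08). The whole set took 2.42%, 2.56%, 2.38%, 2.54% and 2.44% of counts in the fed and 1.85%, 1.59%, 1.56%, 1.62% and 1.95% in the fasted libraries, with no overlap (exact two-sided permutation p = 0.00794, adjusted 0.0265). The complement set was chosen with earlier results of these data known, so this p-value adds no separate support to the calls of its members. C1qa and C1qc, made by macrophages, were also lower, and the call of C1qa was lost in 8 of the 10 fits with 1 library left out (adjusted p up to 0.121) and that of C1qc without fasted replicate 1 (adjusted p = 0.0505).

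Coagulation factors fell in 10 and rose in 5 of 31, and fell in 17 and rose in 4 with library totals alone. Proz and F11 fell by 1.27 and 1.22 on the log2 scale and F7 by 0.87, while the anticoagulant Pros1 rose by 1.29 and F9 by 0.74. Acute phase and carrier proteins were mixed, with 17 lower and 9 higher of 43. Lbp, Hp and Cd14, which bind bacterial lipopolysaccharide or haemoglobin, rose by 1.36, 0.87 and 2.09, whereas Orm1, Saa4 and Apcs fell by 0.88, 1.55 and 0.92, so the acute phase genes did not move as 1 block. Hamp2, a paralog of the iron hormone hepcidin, fell from 114 ± 77.0 to 8.47 ± 5.23 CPM (log2 fold change -3.77 ± 0.60 SE, adjusted p = 8.2e-05), and reads may be divided between it and its near-identical copy.

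Cytokines and chemokines fell in 23 and rose in 5 of 50 (median -0.64). Cxcl9 and Cxcl10, interferon-induced T cell attractants, fell by 2.23 and 1.92, Il18 by 1.74 and Csf1, the macrophage growth factor, by 1.54. Cxcl12, the abundant stromal chemokine, went from 463 ± 94.8 to 230.0 ± 64.7 CPM (log2 fold change -1.01 ± 0.18 SE, adjusted p = 1.1e-04). Il1rn, the interleukin-1 receptor antagonist, rose from 1.81, 1.45, 2.61, 3.01 and 1.699 CPM in fed to 19.2, 25.5, 60.5, 12.8 and 23.7 CPM in fasted libraries (log2 fold change 3.75 ± 0.41 SE, adjusted p = 8.8e-07), fasted replicate 3 being the highest. Cxcl13 rose from 2.22 to 7.49 CPM (log2 fold change 1.76 ± 0.44 SE, adjusted p = 0.0034). Markers of B, T and NK cells fell in 6 of 12 genes, their summed level being 8.76 to 10.5 CPM in fed and 4.10 to 6.31 CPM in fasted libraries, and their part in the fall of the chemokines was not tested.

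Apolipoproteins rose in 4 and fell in 6 of 18. Apoa4, a lipid-transport protein of chylomicrons and of fasted mouse liver, had 99.3, 191, 139, 97.7 and 152 CPM in fed and 1583, 1505, 5339.6, 1669.9 and 6728 CPM in fasted libraries (log2 fold change 4.63 ± 0.43 SE, adjusted p = 1.2e-07). Apoa1 rose from 4865 ± 1276 to 9659 ± 3378 CPM (log2 fold change 0.99 ± 0.22 SE, adjusted p = 9.2e-04). The APOL relatives Apol7a, Apol9a and Apol9b fell by 2.96, 1.94 and 2.01. Of other secreted factors, Manf, an endoplasmic reticulum stress-induced factor, fell from 68.8 to 12.5 CPM. Major urinary protein genes, pheromone carriers with near-identical copies, had 5 lower and none higher of 30 (edgeR). Mup2 had a log2 fold change of -3.14 (adjusted p = 2.6e-04), and Mup12 one of -3.96, which was -0.85 without fed replicate 1 (adjusted p = 0.57).

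**Figure D3:**
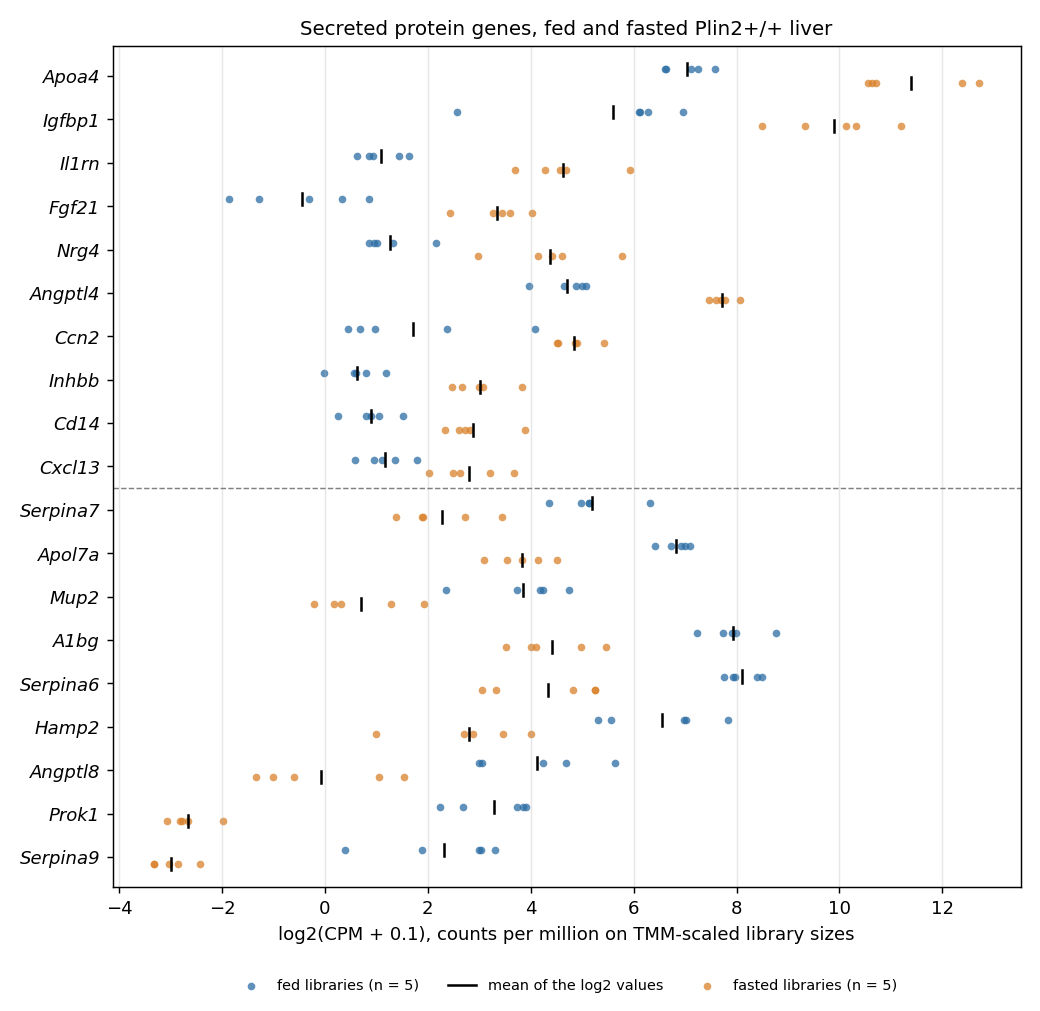
Secreted protein genes with the 10 largest rises (above the dashed line) and 9 of the 10 largest falls among those at a mean of 1 CPM or more with no overlap of the groups, per library as log2(CPM + 0.1), with blue points for the 5 fed and orange points for the 5 fasted libraries and black ticks for group means. Angptl4 has compact groups, whereas Igfbp1 and Hamp2 spread over several log2 units within a group.

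**Figure D4:**
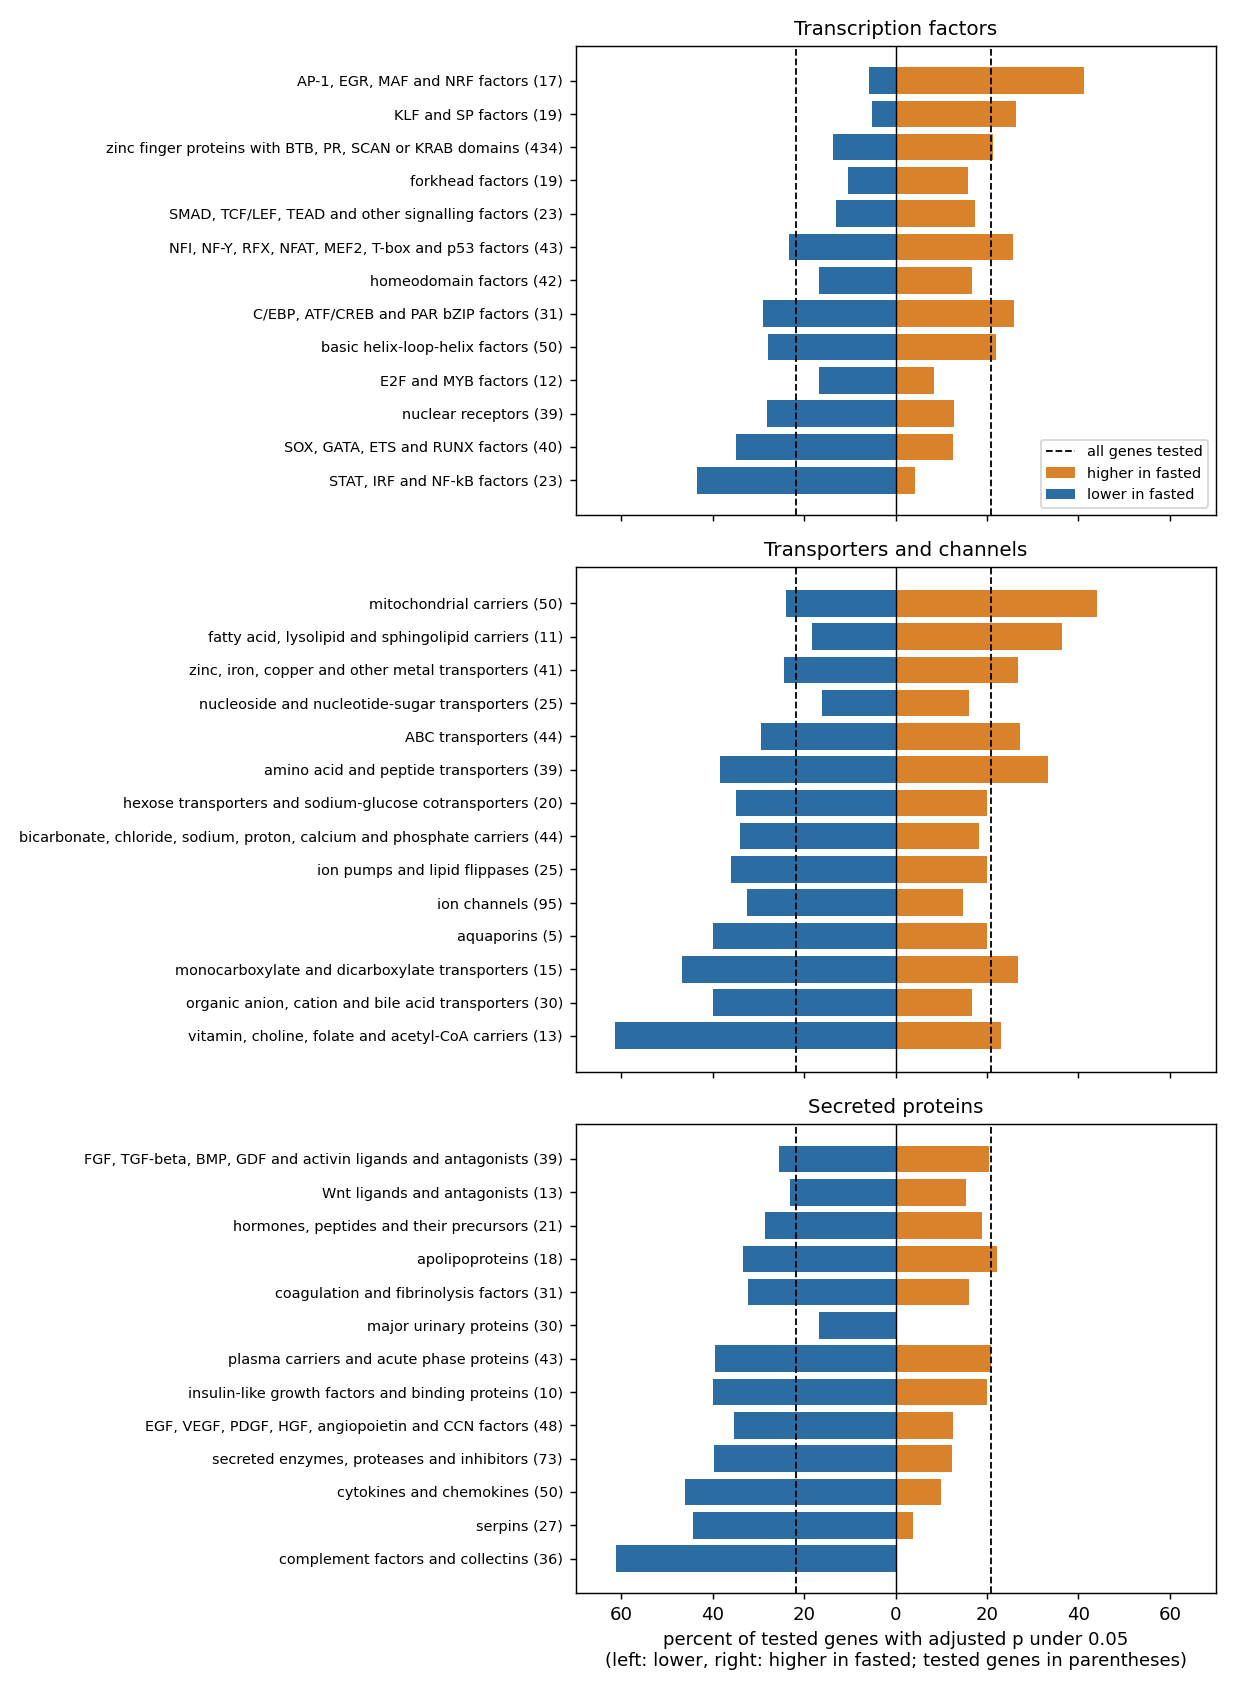
Percent of tested genes in each family with an adjusted p under 0.05, lower in fasted liver to the left (blue) and higher to the right (orange), with the number tested in parentheses and dashed lines at the shares over all genes (21.7% lower, 20.9% higher). Vitamin and choline carriers (61.5%) and complement factors (61.1%) lie farthest to the left, complement with no bar on the right, and mitochondrial carriers (44.0%) lie farthest to the right.

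Of 21 tested genes of cell cycle arrest and growth control, 12 rose and 2 fell (median 0.63, and 8 rose and 2 fell with library totals alone). Cdkn1a, which encodes the cell cycle inhibitor p21, had 13.6, 15.4, 17.0, 46.3 and 8.62 CPM in fed and 169.8, 155, 205, 80.84 and 145 CPM in fasted libraries (log2 fold change 2.91 ± 0.41 SE, adjusted p = 2.1e-05). Ddit4, an inhibitor of the growth kinase mTORC1, went from 10.9 to 77.2 CPM (log2 fold change 2.83 ± 0.77 SE, adjusted p = 0.0069; 2.19 without fasted replicate 3). The Gadd45 stress genes split, Gadd45b and Gadd45g rising by 3.64 and 2.34 and Gadd45a falling by 2.13. Eif4ebp3, a repressor of cap-dependent translation, rose from 0.968, 0.824, 0.670, 1.03 and 0.814 to 2.94, 13.0, 56.0, 5.19 and 47.6 CPM (log2 fold change 4.85 ± 0.75 SE, adjusted p = 5.8e-05), whereas its paralogs Eif4ebp1 and Eif4ebp2 had log2 fold changes of 0.63 and -0.22. Eif4ebp2 did not pass the test (adjusted p = 0.2), and Eif4ebp1 passed but did not without fed replicate 1, fed replicate 4 or fasted replicate 3 (adjusted p = 0.0638, 0.0673 and 0.0811).

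Long non-coding RNAs were divided by type. Of 23 tested on a list of known ones, 7 rose and 4 fell. The snoRNA host genes rose: Snhg1 had 8.75, 6.91, 6.55, 7.77 and 6.58 CPM in fed and 22.6, 28.7, 34.0, 14.2 and 17.6 CPM in fasted libraries (log2 fold change 1.68 ± 0.21 SE, adjusted p = 1.7e-06), and Snhg3, Snhg12 and Gas5 rose by 1.96, 0.84 and 0.72. Meg3, Rian and Mirg, maternally expressed RNAs of the imprinted Dlk1-Dio3 region, fell together. Meg3 had 9.49, 9.27, 8.31, 3.03 and 12.0 CPM in fed and 2.19, 1.78, 1.95, 0.729 and 3.72 CPM in fasted libraries (log2 fold change -2 ± 0.38 SE, adjusted p = 3.5e-04), and Rian and Mirg fell by 2.59 and 3.12. H19, from another imprinted region, was lower by -3.23 (adjusted p = 0.025), but by -0.92 without fed replicate 4 (adjusted p = 0.38). Xist, Malat1 and Neat1 did not pass the test.

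Zonation markers did not move as blocks. Hepatocytes around the central vein and around the portal tract express different genes, and 42 of 60 tested zonation markers changed. Of all tested genes 42.6% were called. Calls were also more frequent among genes at 100 CPM or more, 445 being higher and 294 lower of 1175. The part of expression level in the zonation count was not tested. Of 30 pericentral genes, 13 fell and 7 rose (median -0.31), and of 30 periportal genes, 12 fell and 10 rose (median -0.06). Among the 10 pericentral genes that did not pass the test were Glul, Notum, Tbx3 and Axin2, which are Wnt-driven. Their log2 fold changes were 0.00, 0.05, 0.10 and 0.25, with a 95% interval of -0.44 to 0.45 for Glul. The list holds other Wnt-driven genes, among them Cyp1a2, Cyp2e1 and Oat given next, which passed the test. These 4 therefore do not describe Wnt-driven genes as a set. Pericentral enzymes went both ways: Cyp1a2 fell from 388 ± 96.6 to 62.97 ± 15.4 CPM (log2 fold change -2.62 ± 0.24 SE, adjusted p = 4.1e-08) and Rgn, a calcium-binding lactonase, from 1449.6 ± 173 to 191 ± 69.1 CPM (log2 fold change -2.93 ± 0.24 SE, adjusted p = 6.7e-09). Cyp2e1 rose from 4878 ± 1435 to 9446 ± 2350.0 CPM (log2 fold change 0.95 ± 0.19 SE, adjusted p = 3.6e-04) and Oat, of ornithine breakdown, by 1.17. On the periportal side the urea cycle genes Cps1, Asl and Arg1 rose by 1.199, 1.46 and 1.31, whereas Cyp2f2, Aldh1b1 and Cdh1 fell by 1.32, 2.18 and 1.11.

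Markers of several other cells of the liver were more often lower than higher. Kupffer cell and macrophage markers fell in 9 of 13 genes (median -0.64), stellate cell and fibroblast markers in 8 of 13 (median -0.61) with none higher (edgeR), cholangiocyte markers in 4 of 7 and B, T and NK cell markers in 6 of 12. The summed level of the stellate and fibroblast markers was not lower, at 495 to 862 CPM in fed and 549 to 615 CPM in fasted libraries, and that of the cholangiocyte markers was 105 to 137 CPM in fed and 123 to 171 CPM in fasted libraries. The part of these cells in the results above was not tested. Endothelial markers were even, 4 higher and 4 lower of 14 (median -0.10), and 2 higher and 4 lower with library totals alone. Within lists, exceptions stood out: Cd163, a scavenger receptor of resident macrophages, rose from 36.1 ± 3.03 to 75.8 ± 17.7 CPM (log2 fold change 1.07 ± 0.14 SE, adjusted p = 4.0e-06) while Cd5l fell from 115 ± 12.4 to 42.7 ± 11.5 CPM, and Lyve1, a hyaluronan receptor of sinusoidal endothelium, rose by 1.49 (2.15 without fed replicate 4). Col1a1 fell from 6.09 to 1.43 CPM (log2 fold change -2.12 ± 0.32 SE, adjusted p = 2.0e-05). The acinar markers Cela1 and Cela2a were lower by 2.02 and 1.97, while 7 of the other 8 acinar genes had no count or at most 1 count in any of the 10 libraries.

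Low genes, here those with a mean under 1 CPM over the 10 libraries, numbered 3815 among the tested genes. Of these 350 were higher (9.17%) and 748 lower (19.6%), with a median log2 fold change of -0.18 (220 higher and 844 lower with library totals alone). The lean lay in the protein-coding ones, 138 higher and 538 lower of 1868 (median -0.43), whereas the long non-coding ones were even, 113 higher and 120 lower of 747 (median 0.06). Genes at 100 CPM or more leaned the other way under TMM scaling, with 445 higher and 294 lower of 1175 (median 0.13). That lean was not counted with library totals alone, under which the median of all tested genes was -0.16 and not -0.01. A low gene was tested only where enough libraries had counts, so these counts describe the genes that passed that filter and not all silent genes.

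The lists of single low genes held several proteases, receptors and lineage factors. Ctsj, a cathepsin best known from placenta, had no read in any fed library and 13, 11, 21, 5 and 10 reads in fasted replicates 1 to 5, at least 25.6-fold higher against a floor of 3 counts over the fed group. Oscar, an osteoclast-associated receptor, had 0, 1, 0, 0 and 2 reads in fed and 26, 11, 13, 11 and 18 reads in fasted libraries, and the neuronal vesicle gene Syt4 0, 0, 1, 2 and 0 and 26, 22, 16, 8 and 11 reads. The matrix metalloproteinase genes Mmp7 and Mmp8 went from 2, 1, 0, 0 and 1 to 12, 14, 13, 3 and 10 reads and from 0, 2, 0, 3 and 1 to 8, 25, 18, 7 and 22 reads. In all of these the fasted libraries lay above every fed library as CPM, a condition by which they were chosen. Ms4a4a, a membrane gene of macrophages, had 0.106, 0.1005, 0.0670, 0.226 and 0.124 CPM in fed and 1.11, 2.01, 2.86, 0.557 and 1.01 CPM in fasted libraries (log2 fold change 3.61 ± 0.43 SE, adjusted p = 6.8e-07).

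Reads over 2 microRNA genes rose as well. Mir802 had 2, 1, 2, 1 and 1 reads in fed and 11, 16, 10, 9 and 27 reads in fasted libraries (log2 fold change 3.63 ± 0.48 SE, adjusted p = 3.1e-06), and Mir290b 3, 6, 5, 1 and 9 and 76, 102, 45, 30 and 45 reads (log2 fold change 3.92 ± 0.37 SE, adjusted p = 3.2e-08), Mir290b sharing its exon with Mir290a on the opposite strand. An mRNA library counts longer RNA that runs over the hairpin, so mature microRNAs were not measured. The mature 5′ arm of each gene, from RefSeq on GRCm38.p6, is given for identification with the seed (bases 2 to 8) in capitals; the seeds are different.
mmu-miR-290b-5p: gCUUAAAAcuaggcggcacuuu
mmu-miR-802-5p: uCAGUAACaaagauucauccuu
The falls at low level included lineage factors. Bhlha15, which encodes the secretory cell factor MIST1, had 3.56, 1.79, 0.425, 1.48 and 0.902 CPM in fed and 0.0678, 0.0376, 0, 0.0857 and 0.0516 CPM in fasted libraries (log2 fold change -5.05 ± 0.90 SE, adjusted p = 1.6e-04), and Nfe2, a blood cell factor, 0.475, 1.37, 0.536, 0.652 and 3.08 and 0.0452, 0.0188, 0.0590, 0.0857 and 0.0258 CPM (log2 fold change -4.78 ± 0.75 SE, adjusted p = 3.2e-05; -4.08 without fed replicate 5). Atp4a, the gastric proton pump subunit, had 68, 68, 76, 155 and 55 reads in fed and 1, 2, 0, 0 and 7 reads in fasted libraries, and Gnat2, a transducin subunit of cone cells, 48, 43, 24, 58 and 60 and 3, 1, 3, 0 and 2 reads (log2 fold change -4.27 ± 0.44 SE, adjusted p = 1.1e-07). Nptx1, Nat8f7, Clic3 and Lgi2 completed the list, Nptx1 with 11, 19, 23, 31 and 17 reads in fed and 0, 3, 0, 0 and 0 in fasted libraries.

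Genes seen in 1 state only were rare. Of 28265 genes with any count, 15 (0.0531%) had no read in any fed library and at least 1 in every fasted one, and 38 (0.134%) had the reverse pattern. The fasted-only set held the peroxisomal thioesterase gene Acot5 and the G protein regulator Rgs8, with 29 and 21 reads in all, so that only Ctsj had 3 or more reads in each fasted library among the protein-coding members. The fed-only set held Pnpla5, a lipase-family gene, with 5, 3, 5, 20 and 12 reads, at least 11.7-fold higher in fed liver, and the snRNA gene Gm22935 and the antisense RNA 1700092C10Rik with 294 and 158 reads in all, at least 76.5-fold and 41.1-fold higher. The counts are low and vary between libraries, and reads on genes of the opposite strand cannot be told apart where the strand setting is not given.

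**Figure D5:**
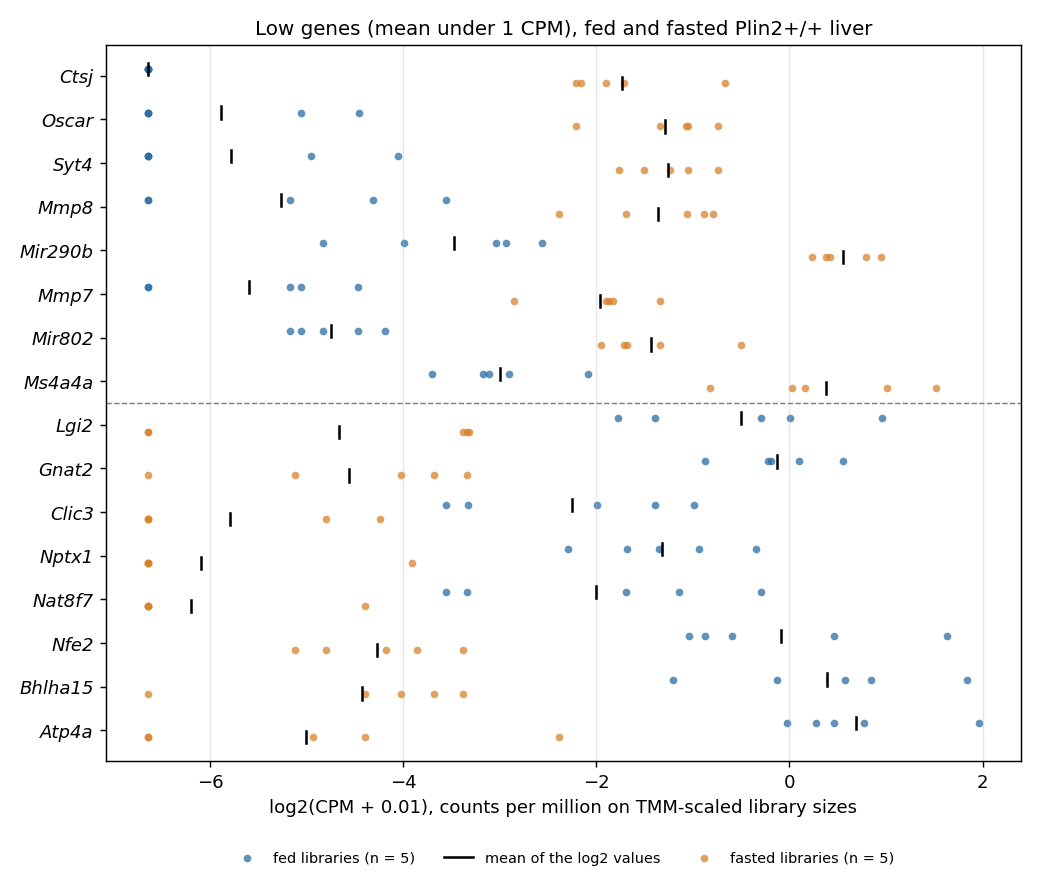
Low genes with the 8 largest rises (above the dashed line) and 8 largest falls among those with no overlap of the groups and no predicted or clone name, per library as log2(CPM + 0.01), with blue points for the 5 fed and orange points for the 5 fasted libraries and black ticks for group means. Points at the left edge are libraries with no read, as in all 5 fed libraries for Ctsj and 4 of 5 fasted libraries for Nptx1 and Nat8f7.

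The most abundant mRNAs were largely the same in both states. On the deposited TPM scale, which corrects for length, 9 genes were among the 10 highest in both groups: Alb, Apoa1, Apoa2, Fabp1, Serpina3k and the mitochondrially encoded mt-Co1, mt-Cytb, mt-Nd1 and mt-Nd2. Trf left the 10 highest on fasting and Cyp4a14, a fatty acid ω-hydroxylase, entered it. The 8 Cyp4a genes together took 0.283%, 0.179%, 0.0682%, 0.0256% and 0.0862% of counts in the fed and 2.48%, 2.15%, 2.17%, 1.95% and 1.99% in the fasted libraries (exact two-sided permutation p = 0.00794, adjusted 0.0265), reads being possibly divided among these near-identical genes. The Cyp4a set was chosen with earlier results of these data known, so this p-value adds no separate support. As a ratio the fed libraries differed more among themselves than the fasted ones. The other steep changes at 5 CPM or more, by the rule of 20 genes in each direction, included the near-identical thioesterase genes Acot1 and Acot2 (4.11 and 4.41), Pdk4 (3.74) and Vnn1, the pantetheinase (3.61), and on the falling side Cyp2c70, a bile acid 6-hydroxylase of mice (-4.41), Fabp5 (-4.49), Thrsp (-4.86) and Paxx. Paxx, a DNA repair factor, had 38.7, 34.7, 26.1, 15.0 and 14.8 CPM in fed and 0.927, 1.18, 1.12, 1.07 and 1.94 CPM in fasted libraries (log2 fold change -4.37 ± 0.31 SE, adjusted p = 1.9e-09). Among the smallest adjusted p-values beside Abca8a and Slc22a5 were Tmem120a, a membrane protein of the nuclear envelope, which rose from 10.8 ± 1.04 to 48.6 ± 10.3 CPM, Gfra1, the receptor for the growth factor GDNF, which rose from 119 ± 3.93 to 604 ± 88.4 CPM, and Lgals4, a galectin best known from gut, which rose from 7.64 ± 1.32 to 43.6 ± 4.37 CPM.

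Some genes held level within a narrow interval. The 95% interval of the log2 fold change lay within ±0.5 for 22.7% of all tested genes, and for 187 of 792 transcription factor, 60 of 457 transporter and 47 of 439 secreted protein genes, and for 3 of 3815 low genes, for which counting error leaves wider intervals.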

How the data were processed

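Strand-specific TruSeq mRNA libraries were made from liver, per the labels' protocols. Read counts per gene, and TPM values scaled for gene length, were both deposited by the authors for the 20 libraries. HISAT2 1.2.1 and featureCounts 1.4.6-p1 are listed in the submitters' processing notes, which give GRCh38 as the build although the gene identifiers are of mouse. No source used here states the strand setting of the counting, reads of overlapping genes may be mixed, and 32 of 124 genes named by rule have an exon that another gene overlaps.

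The deposited counts of all 20 libraries, 5 in each of 4 groups, were fitted with edgeR 4.0.16 (filterByExpr, TMM scaling, quasi-likelihood test), which left 16312 genes, and the contrast of Plin2+/+ fasted against fed was adjusted by Benjamini-Hochberg over all of them. Families were taken by symbol patterns. The members, families and lists were chosen with earlier results of these data known. Named genes were those called, without overlap of the groups and without a predicted or clone name: the 10 rising and 10 falling most in each class at a mean of 1 CPM or more, the 8 each way under 1 CPM, the 20 each way at 5 CPM or more, the 10 highest by TPM in each state, the 10 smallest adjusted p-values (the last 2 sets without the overlap condition), and members of a family or list where it is described. On counts simulated for these 16312 genes, the test recovered 38.8%, 85.1% and 97.0% of 67, 67 and 66 genes changed by 1.5, 2 and 4-fold, with 7 false calls. The changed genes all had a mean above 1 CPM, so these rates do not describe the low genes. Far fewer genes changed there than the 42.6% called here, so the rates and the false calls need not carry over to these data. The 20 pairs of replicates within the groups all differed beyond sampling noise (smallest chi-square per degree of freedom 65.9). Alternatives were DESeq2 1.42.0, limma 3.58.1 with voom, other scalings and filters, the Plin2+/+ libraries alone, limma on log2(TPM + 1) or log2(TPM + 0.1), and leaving out each library. Promoter and microRNA sequences are from RefSeq on GRCm38.p6. Some genes that these rules would name are not reported here.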

Additional observations from a re-analysis of the deposited data

Results flagged for a closer look

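In 25 of 248 groups of 5 libraries examined, over the genes named, 1 library lay apart from the other 4 by more than 0.71 of the group's whole range. That limit would flag about 1 in 20 groups of normally distributed values. CPM values are bounded at 0 and their shape was not tested, so 25 of 248 cannot be read against that rate. All 25 were high libraries. Fasted replicate 3 stood apart for Il1rn at 60.5 CPM (next 25.5), Cd14 at 14.7 CPM (next 6.97), Ctsj at 0.619 CPM (next 0.294), Itga2 at 37.9 CPM (next 6.12), Ppp1r3g at 48.3 CPM (next 16.1), Cyp4a31 at 138 CPM (next 109) and Gadd45b at 25.7 CPM (next 11.1). Fed replicate 4 stood apart for Slc41a3 at 1.25 CPM (next 0.724), Nrg4 at 4.36 CPM (next 2.41), Ccn2 at 16.8 CPM (next 5.05), Atp4a at 3.89 CPM (next 1.7), Itga2 at 0.376 CPM (next 0.181), Ppp1r3g at 1.23 CPM (next 0.354) and Lepr at 36.9 CPM (next 14.6). Fed replicate 1 stood apart for Slc22a30 at 260 CPM (next 199), Serpina7 at 79.9 CPM (next 35.1) and Ehhadh at 513 CPM (next 307). Fed replicate 5 stood apart for Klf11 at 13.5 CPM (next 6.15), Rgs16 at 24.6 CPM (next 3.85) and Gbp10 at 20.8 CPM (next 15.2). Fasted replicate 2 stood apart for Nat8f7 at 0.0376 CPM (next 0) and Nptx1 at 0.0564 CPM (next 0). Fasted replicate 5 stood apart for Atp4a at 0.181 CPM (next 0.0376) and Paxx at 1.94 CPM (next 1.18). Fed replicate 2 stood apart for Adra2a at 0.0804 CPM (next 0). Fed replicate 4 is also the fed library with most genes far from its group median. Without the library that stood apart, the log2 fold change went from 5.90 to 4.54 for Itga2 (fasted replicate 3), from 4.55 to 5.94 for Rgs16 (fed replicate 5) and from 2.49 to 3.61 for Ccn2 (fed replicate 4), all keeping their call.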

How the results depend on the processing

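For the 114 genes named by the rules on fold change or p, all 2147 values present under the 19 alternatives kept their direction and their call. Some of these genes had no value under some alternatives and could not be checked there. These genes were chosen from the same libraries by large fold without overlap or by small p. Their kept calls therefore say little about other genes, and Fos, Jun, C1qa and Slc44a4 lost calls as given above. The size was not kept: the fold moved by more than 1.5 times for 53 genes with TPM and a pseudocount of 1, 24 with a pseudocount of 0.1 and 9 with voom, for example from 4.86 to 4.03 on the log2 scale for Eif4ebp3, from 2.49 to 3.27 for Ccn2 and from 6.78 to 4.89 for Ctsj with voom, and from 9.98 to 3.27 for Adra2a with TPM and a pseudocount of 1, which compresses low genes by construction. Transcription factor calls fell from 305 to 195 and 196 with TPM and a pseudocount of 1 and 0.1, and low-gene calls from 1098 to 221 with the stricter filter (at least 1 CPM in 5 libraries, which leaves 541 low genes) and to 652 when low meant a mean under 0.5 CPM (which leaves 2460). The cause of the change with TPM was not tested. All other counts stayed within 1.5 times. Leaving out 1 library in turn gave 6147 to 7078 calls over all genes, 250 to 308 for transcription factors, 236 to 267 for transporters, 195 to 225 for secreted proteins, 38 to 43 for zonation markers and 969 to 1142 for low genes.

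The split of calls depended on scaling. With library totals alone the higher share was 29.0% for transcription factors (52.8% with TMM), 31.0% for transporters (42.8%) and 20.7% for low genes (31.9%), and with TPM and a pseudocount of 1 it was 30.2% over all genes, 29.2%, 31.0% and 22.4%. No paired analysis was possible because the library titles carry no replicate number that the fed and fasted groups share. Depth limits the low genes: calls of single low genes rest on few reads.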
